A study of Mus musculus with 6 samples.

Results

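The sarcomeric myosin heavy chain genes were examined in differentiating C2C12 cells with and without a long CUG repeat RNA. The family was taken as 8 genes found by symbol, *Myh1*, *Myh2*, *Myh3*, *Myh4*, *Myh6*, *Myh7*, *Myh7b*, and *Myh8*, out of 55421 genes in the count table. C2C12 is a mouse myoblast line that fuses into myotubes when serum is withdrawn. Both groups were C2C12 cells that had been stably transfected and kept under G418 until stable, so the control cells also carried a GFP transgene and had been through selection. The normal group held the GFP-CUG5 plasmid (CUG5, 5 repeats) and the DM1 group the GFP-CUG200 plasmid (CUG200, 200 repeats), a model of myotonic dystrophy type 1 in which an expanded CTG repeat is transcribed into CUG repeat RNA. RNA was taken at differentiation day 4, and each group had 3 libraries. The sources used here do not say whether the libraries of a group came from separate transfections or clones, so a p-value measures only the spread between these libraries, and a difference between the groups cannot be told apart from a difference between the 2 transfected lines. The question was whether the myosin heavy chains, and the proportions in which the cells use them, differed between the groups.

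Each heavy chain forms the motor and the rod of the thick filament, and a muscle cell changes the isoforms it uses as it matures. *Myh3* encodes the embryonic and *Myh8* the perinatal chain, which are the developmental isoforms of newly formed and regenerating fibers. *Myh2*, *Myh1*, and *Myh4* encode the adult fast chains IIa, IIx, and IIb. *Myh7* encodes the slow chain, which is also the beta chain of the heart, *Myh6* the alpha chain of the heart, and *Myh7b* an ancient slow-type chain. Cultured myotubes are known for a predominance of developmental isoforms.

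The 5 developmental and fast genes lie head to tail on the plus strand of chromosome 11 in GRCm38. In that order they are *Myh3* (chr11:67078300-67102291), *Myh2* (chr11:67171027-67197517), *Myh1* (chr11:67200052-67224575), *Myh4* (chr11:67238029-67260446), and *Myh8* (chr11:67277124-67308634). *Myh6* (chr14:54941921-54966927) and *Myh7* (chr14:54970684-54994626) are neighbors on the minus strand of chromosome 14, and *Myh7b* (chr2:155611212-155634307) is alone on chromosome 2. The longest coding transcripts had between 39 and 42 exons and encoded proteins of 1935 to 1942 residues by coding length (GENCODE M21).

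The sequence before the start site was compared among the members because 5 of them sit side by side. RefSeq windows of GRCm38.p6 were matched by symbol for 8 of 8 members, and the 250 bases before the RefSeq start were used, a start that can differ from the GENCODE gene start given above. A run of 14 bases, TTCTAATTATATCC, was shared by *Myh1*, *Myh2*, *Myh4*, and *Myh8*, and it was found on either strand in 4 of 32851 windows (0.0122%), all of them theirs. A run of 15 bases, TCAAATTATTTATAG, was shared by *Myh1*, *Myh4*, and *Myh8* and was found in 3 windows (0.00913%). The longest run common to all 5 genes of the cluster had 7 bases, and *Myh6* and *Myh7* shared a run of 10 bases. The windows of the 5 clustered genes are shown so that these runs can be seen, with the 14-base run, the 15-base run, and TATAAA read on the plus strand in capitals.
Myh3 chr11:67078050-67078299 (+): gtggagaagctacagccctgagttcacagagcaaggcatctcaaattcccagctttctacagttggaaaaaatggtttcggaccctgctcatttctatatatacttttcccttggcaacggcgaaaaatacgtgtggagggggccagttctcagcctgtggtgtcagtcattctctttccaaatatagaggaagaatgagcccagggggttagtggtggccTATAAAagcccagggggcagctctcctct
Myh2 chr11:67170777-67171026 (+): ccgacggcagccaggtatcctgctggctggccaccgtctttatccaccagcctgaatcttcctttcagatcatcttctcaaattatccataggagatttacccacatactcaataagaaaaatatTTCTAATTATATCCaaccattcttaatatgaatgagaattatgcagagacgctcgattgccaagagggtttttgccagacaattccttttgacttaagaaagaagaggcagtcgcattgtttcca
Myh1 chr11:67199852-67200101 (+): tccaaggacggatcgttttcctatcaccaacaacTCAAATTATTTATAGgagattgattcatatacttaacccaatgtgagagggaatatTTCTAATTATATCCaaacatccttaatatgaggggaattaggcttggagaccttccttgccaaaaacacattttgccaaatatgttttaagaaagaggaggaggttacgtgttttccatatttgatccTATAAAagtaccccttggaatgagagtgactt
Myh4 chr11:67237562-67237811 (+): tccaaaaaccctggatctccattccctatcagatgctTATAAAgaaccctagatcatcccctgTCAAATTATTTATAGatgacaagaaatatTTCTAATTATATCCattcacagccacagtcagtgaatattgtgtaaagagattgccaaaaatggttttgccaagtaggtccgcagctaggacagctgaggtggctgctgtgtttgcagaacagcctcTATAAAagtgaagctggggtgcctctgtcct
Myh8 chr11:67276874-67277123 (+): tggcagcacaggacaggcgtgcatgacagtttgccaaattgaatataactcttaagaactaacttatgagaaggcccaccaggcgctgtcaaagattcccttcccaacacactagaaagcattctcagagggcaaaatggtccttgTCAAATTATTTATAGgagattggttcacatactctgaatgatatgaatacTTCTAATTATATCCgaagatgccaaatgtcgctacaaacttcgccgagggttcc

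The 14-base run began 160 bases before the start in *Myh1*, 125 in *Myh2*, 158 in *Myh4*, and 54 in *Myh8*. TATAAA began 29 bases before the start in *Myh3*, 32 in *Myh1*, and 31 in *Myh4*, with a further copy 213 bases before the start of *Myh4*. Counted on both strands, TATAAA was found in 4 members, and in 12.4% of all windows. Its reverse-strand matches in *Myh1*, *Myh4*, and *Myh8* overlapped the 15-base run. A MEF2-type match was found in the same 3 genes, inside the 15-base run, and in 2.92% of all windows. The E-box CANNTG was found in 6 members (66.2% of all windows), the MCAT letters CATTCC in 3 members (12.6%), and a CArG-type match in *Myh4* only (1.47%). These matches describe letters in short windows and were not tested for any function.

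The count table summed to between 61707889 and 80957325 counts per library. A count stood for 75 aligned bases, so that about 4 counts made 1 fragment. The 8 heavy chains took 0.176%, 0.142%, and 0.184% of the counts in CUG5 libraries 1, 2, and 3, and 0.0489%, 0.0603%, and 0.0823% in CUG200 libraries 1, 2, and 3. The members are close paralogs that share coding sequence, so a read can be assigned to the wrong member. Sums over classes are given beside the single genes for that reason, but they cover only swaps within a class. *Myh6* and *Myh7* are in different classes, as are *Myh8* and the fast chains, so swaps between these would still alter class sums and shares. The family total does not depend on swaps among the 8 members.

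All 8 heavy chain genes were lower in CUG200 than in CUG5. The perinatal *Myh8* differed most, by 7.48-fold, and the slow-type *Myh7b* least, by 1.77-fold. Of the 8 members tested, 7 passed an adjusted p-value under 0.05 with an absolute log2 fold change over 1 (the quasi-likelihood test of edgeR, Benjamini-Hochberg adjusted), where 0.816% of the 19005 tested genes were lower by the same rule. At an adjusted p-value under 0.05 alone, 8 of 8 members fell, against 8.73% of tested genes. In 8 of 8 members every CUG200 library was below every CUG5 library in CPM, counts scaled by TMM to library size, which was so for 19.3% of tested genes. The median log2 fold change of the members was -1.77 and that of all tested genes 0.02. When the fold change itself was tested against a log2 value of 1 (glmTreat), 1 member, *Myh8*, passed.

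The level of the family as a whole was summed over the members in TPM, a unit scaled for transcript length and library size. It was 521, 397, and 509 TPM in the CUG5 libraries and 126, 158, and 230 TPM in the CUG200 libraries. The groups did not overlap, and CUG200 library 3 was the highest of its group. The summed counts of the family fell by 1.38 on the log2 scale (SE 0.16, adjusted p = 0.00257, edgeR). Most markers of myotubes were also lower: of 10, 7 fell at an adjusted p-value under 0.05 by edgeR, against 8.73% of tested genes. Both cutoffs were passed by 0 of them by edgeR, where 0.816% of tested genes were lower by that rule. They were also passed by 0 by DESeq2 or by an unadjusted p-value under 0.05 with the same fold. The summed level of the 10 markers was between 9101 and 10683 TPM in CUG5 and between 4743 and 6957 TPM in CUG200. Of these markers, creatine kinase *Ckm* changed by -0.84 (adjusted p = 0.00159), cardiac actin *Actc1* by -0.77 (adjusted p = 0.00197), and the myogenic factor *Myog* by -0.65 (adjusted p = 0.00227) on the log2 scale. The fusion gene *Mymx* had the opposite sign, at 0.23 (adjusted p = 0.0732), and did not pass, with every CUG200 library above every CUG5 library in CPM. By TPM the groups of *Mymx* overlapped, at 163, 149, and 140 in CUG5 and 144, 166, and 170 in CUG200. The part of these markers in the family's difference was not tested, and in RNA from whole cultures fewer myotubes and less RNA per myotube cannot be told apart.

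**Figure D1:**
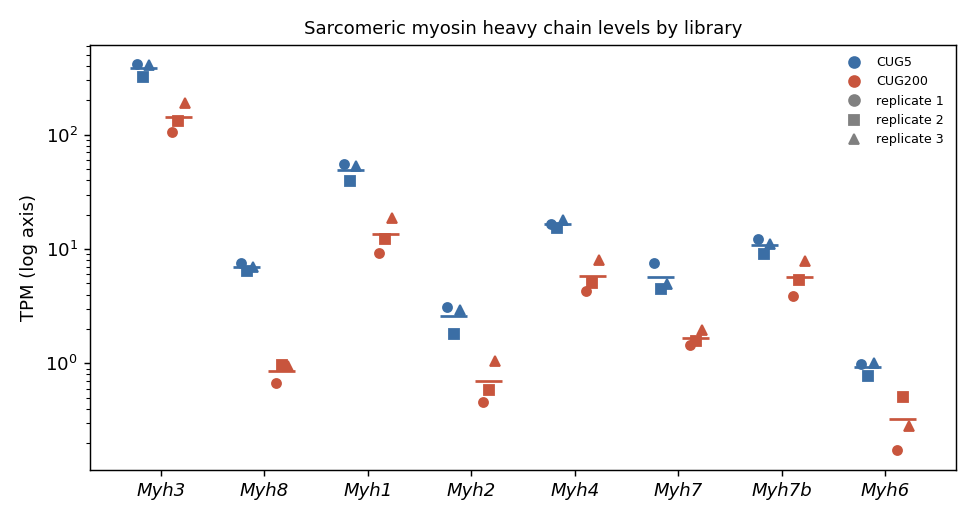
TPM of each heavy chain gene in each library on a log axis, with CUG5 in blue, CUG200 in red, one symbol per replicate number, and a bar at the mean of 3 libraries. All CUG200 points lie below all CUG5 points of the same gene, and Myh3 is the highest gene in every library.

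The developmental chains made up most of the family's RNA. The embryonic *Myh3* was at 417, 320, and 411 TPM in CUG5 libraries 1, 2, and 3, and at 105, 131, and 191 TPM in CUG200 libraries 1, 2, and 3. Its lowest CUG5 library was above its highest CUG200 library. In CPM it was at 1373 ± 182 (SD, n = 3) in CUG5 and 550 ± 112 in CUG200, which is 2.50-fold lower (log2 fold change -1.32, SE 0.16, adjusted p = 0.00270, edgeR). The microRNA gene *Mir6923*, which lies inside *Myh3* on the same strand, had 34, 30, and 37 counts in CUG5 and 8, 10, and 16 counts in CUG200, and its log2 fold change of -1.54 did not pass (adjusted p = 0.0713).

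The perinatal *Myh8* had the largest log2 fold change of the family. It had 2083, 1423, and 1756 counts in the CUG5 libraries and 215, 268, and 207 counts in the CUG200 libraries. By length-scaled level it was at 7.53, 6.37, and 6.90 TPM in CUG5 and at 0.673, 0.961, and 0.944 TPM in CUG200. The groups did not overlap, and CUG200 library 1 was the lowest of its group by TPM. The log2 fold change was -2.90 (SE 0.14, adjusted p = 7.65e-05, edgeR), and by this p-value *Myh8* was rank 2 of all tested genes. With limma it was -2.09 on log2(TPM + 1) and -2.89 on log2(TPM + 0.1). The developmental chains summed changed by -1.34 (SE 0.16, adjusted p = 0.00256), close to the value of *Myh3*, which supplied nearly all of their counts.

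Among the adult fast chains, the IIx chain *Myh1* was the most abundant. It was at 55.9, 39.1, and 53.3 TPM in CUG5 and at 9.28, 12.3, and 18.8 TPM in CUG200. Every CUG200 library was below every CUG5 library, and CUG200 library 3 was the highest of its group (SD 4.90 TPM, n = 3). In CPM *Myh1* was 3.44-fold lower (log2 fold change -1.78, SE 0.21, adjusted p = 0.00328, edgeR). The antisense gene *Myhas* shares 515 exonic bases with *Myh1* and had between 0 and 18 counts per library, against at least 2484 counts of *Myh1* itself, and did not pass (-1.21, adjusted p = 0.445).

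The IIb chain *Myh4* was at 16.7, 15.3, and 17.9 TPM in CUG5 and at 4.26, 5.02, and 8.02 TPM in CUG200. In CPM it was 2.68-fold lower (log2 fold change -1.42, SE 0.17, adjusted p = 0.00270, edgeR). The IIa chain *Myh2*, typical of fast oxidative fibers, was the least abundant of the fast chains, at 3.09, 1.79, and 2.91 TPM in CUG5 and 0.460, 0.583, and 1.05 TPM in CUG200. Its groups did not overlap, although CUG5 library 2 was well below the other CUG5 libraries. The log2 fold change of *Myh2* was -1.76 (SE 0.27, adjusted p = 0.00603, edgeR), or -1.08 with limma on log2(TPM + 1). An antisense gene, *9430073C21Rik*, shares 237 exonic bases with *Myh2* and had 79, 33, and 50 counts in CUG5 and 47, 31, and 29 in CUG200, and its value of -0.55 did not pass (adjusted p = 0.355). The strand setting of the counting is not given in the sources used here, so reads of a gene and its antisense partner cannot be told apart. The fast chains summed changed by -1.68 (SE 0.20, adjusted p = 0.00299).

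Both slow-type genes fell. *Myh7*, the slow and cardiac beta chain, had 1316, 779, and 1147 counts in CUG5 and 211, 224, and 281 counts in CUG200. The highest CUG200 library was below the lowest CUG5 library, and the log2 fold change was -2.13 (SE 0.18, adjusted p = 9.97e-04, edgeR), or -1.31 with limma on log2(TPM + 1). Its TPM was 7.62, 4.51, and 4.99 in CUG5 and 1.46, 1.56, and 1.95 in CUG200. *Myh7b* had 2006, 1288, and 1493 counts in CUG5 and 713, 874, and 1039 in CUG200. It showed the smallest difference of the family, with a log2 fold change of -0.82 (SE 0.17, adjusted p = 0.0153, edgeR), and did not pass the fold cutoff. Its call at the adjusted p-value was lost without CUG5 library 1 (0.0627), CUG5 library 3 (0.0558), or CUG200 library 2 (0.0621). *Myh7* and *Myh7b* summed changed by -1.22 (SE 0.16, adjusted p = 0.00337).

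The alpha chain of the heart, *Myh6*, was the least abundant member, with 286, 179, and 266 counts in CUG5 and 56, 53, and 68 counts in CUG200. The groups did not overlap, and the log2 fold change was -2.01 (SE 0.22, adjusted p = 0.00205, edgeR). With limma it was -0.55 on log2(TPM + 1), and -1.35 on log2(TPM + 0.1), where the call was lost (adjusted p = 0.0588). By TPM it was at 0.993, 0.781, and 1.00 in CUG5 and 0.173, 0.509, and 0.285 in CUG200, so that CUG200 library 2 was the lowest of its group by counts and the highest by TPM. Cardiomyocyte markers were scarce: of 8 in the list, 4 had enough counts to be tested, *Tbx5* and *Myl7* had at most 3 counts in every library, and the list summed to between 13.5 and 17.7 TPM in CUG5 and between 12.01 and 14.3 TPM in CUG200. Of the 4 tested, 1 passed, *Gata4*, a transcription factor of the heart, at -0.84 on the log2 scale (adjusted p = 0.00682, edgeR). Of the others, *Nppb*, a natriuretic peptide, stood at 1.16 (adjusted p = 0.206), *Tnni3*, the cardiac troponin I, at -0.41 (adjusted p = 0.408), and the heart factor *Nkx2-5* at -1.51 (adjusted p = 0.0889). The microRNA genes that lie within introns of *Myh6* (*Mir208a*), *Myh7* (*Mir208b*), and *Myh7b* (*Mir499*) had 0 counts in every library.

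**Figure D2:**
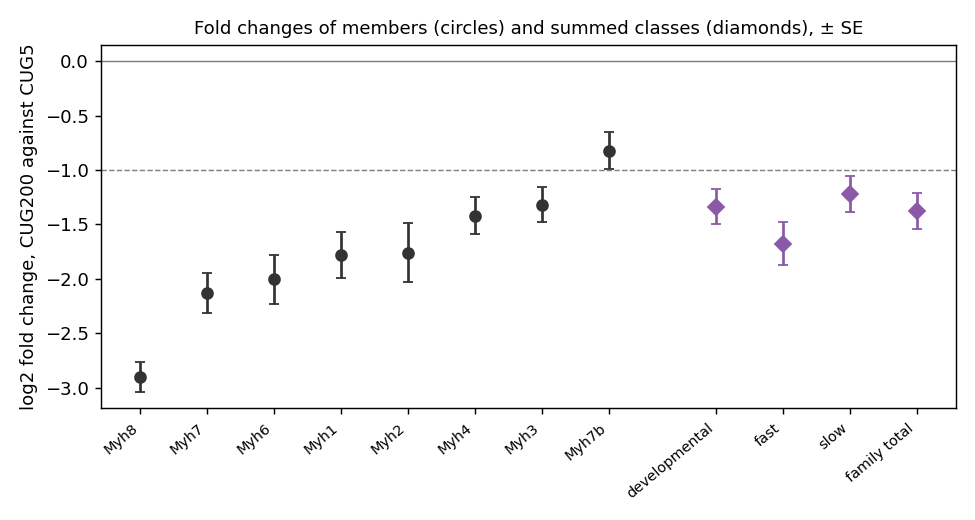
Log2 fold change of CUG200 against CUG5 from edgeR with its SE for each member (circles) and for the summed counts of the classes and of the family (diamonds), with the fold cutoff as a dashed line. Values run from -2.90 for Myh8 to -0.82 for Myh7b.

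The order of the levels was read in TPM. In CUG5 the order was *Myh3*, *Myh1*, *Myh4*, *Myh7b*, *Myh8*, *Myh7*, *Myh2*, and *Myh6*, and among neighbors in this order only the ranges of *Myh8* and *Myh7* overlapped. In CUG200 *Myh3* and *Myh1* again led. There *Myh4* and *Myh7b* overlapped, *Myh7* (1.46 to 1.95 TPM) was above *Myh8* (0.673 to 0.961 TPM), and *Myh8*, *Myh2*, and *Myh6* overlapped from one to the next. The perinatal chain thus lay among the 3 lowest members in CUG200. By counts per kilobase of the longest coding transcript, *Myh8* came before *Myh7b* in CUG5, with overlapping ranges, and *Myh7* and *Myh8* overlapped in CUG200.

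The proportions of the isoforms within the family were then compared. The developmental share of the summed TPM was 81.4%, 82.2%, and 82.1% in the CUG5 libraries and 84.5%, 84.0%, and 83.5% in the CUG200 libraries. Each CUG200 library was above each CUG5 library, by a difference of the means of 2.07 percentage points. The fast share was 14.5%, 14.2%, and 14.6% in CUG5 and 11.1%, 11.3%, and 12.1% in CUG200, lower by a mean of 2.88 percentage points with no overlap. The slow share was 3.83%, 3.41%, and 3.16% in CUG5 and 4.23%, 4.36%, and 4.25% in CUG200. It was higher in CUG200 without overlap, by a mean of 0.812 percentage points by TPM, but by 0.237 by counts, 0.282 by coverage, and 0.236 by counts per kilobase. For each of these 3 classes the exact two-sided permutation test gave p = 0.1, the smallest value that 3 against 3 libraries allow, and an adjusted p of 0.171 over the 12 shares tested, so that no share could pass the threshold in this design. The order of the groups in these 3 classes was the same with shares of counts, of StringTie coverage, and of counts per kilobase.

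**Figure D3:**
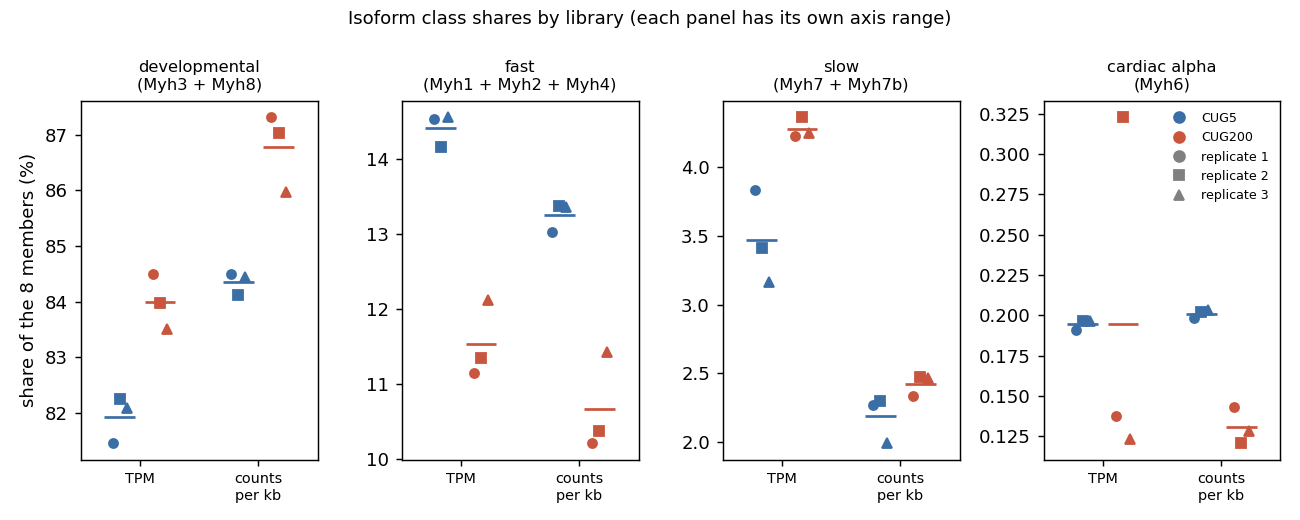
Share of each isoform class in the sum of the 8 members (%) by library, from TPM and from counts per kilobase of the longest coding transcript, with CUG5 in blue, CUG200 in red, and a bar at the mean of 3 libraries. Developmental shares are higher and fast shares lower in CUG200 on both scales, while the Myh6 share overlaps by TPM and is lower by counts per kilobase.

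Within the classes, the shares of single members went in different directions. The share of *Myh3* was 80.5% ± 0.394 (SD, n = 3) in CUG5 and 83.5% ± 0.440 in CUG200, higher without overlap, whereas that of *Myh8* was 1.47% ± 0.125 and 0.518% ± 0.101, lower without overlap. Per unit of *Myh3* TPM, *Myh8* stood at 0.0181, 0.0199, and 0.0168 in CUG5 and at 0.00638, 0.00731, and 0.00493 in CUG200. The share of *Myh1* was 10.4% ± 0.453 in CUG5 and 7.78% ± 0.400 in CUG200, without overlap, while those of *Myh4* (3.52% ± 0.324 and 3.35% ± 0.153) and *Myh2* (0.539% ± 0.0769 and 0.397% ± 0.0505) overlapped. The ratio of *Myh1* to *Myh4* in TPM was 3.35, 2.56, and 2.98 in CUG5 and 2.18, 2.44, and 2.35 in CUG200. Of the slow-type genes, *Myh7b* took 2.27% ± 0.0930 in CUG5 and 3.28% ± 0.186 in CUG200, higher without overlap. Its mean difference was 1.01 percentage points by TPM, but 0.604 by counts, 0.547 by coverage, and 0.591 by counts per kilobase. The *Myh7* share overlapped by TPM (1.19% ± 0.247 and 0.999% ± 0.157) but was lower without overlap by counts per kilobase (0.872% ± 0.0196 and 0.516% ± 0.0149). *Myh6* likewise overlapped by TPM (0.195% in both groups, SD 0.00340 in CUG5 and 0.111 in CUG200) and was lower by counts per kilobase (0.201% ± 0.00261 and 0.131% ± 0.0114). Of the slow class, *Myh7b* was the member with a higher share in CUG200. Exact permutation p-values for the single members ranged from 0.1 to 1.

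Whether a member fell further than the family as a whole was tested by edgeR with the summed counts of the 8 members as the library size. *Myh8* was lower relative to the family, by -1.50 on the log2 scale (SE 0.27, adjusted p = 1.59e-05), and so was *Myh7*, by -0.76 (SE 0.26, adjusted p = 0.00986). Of all tested genes, 0.0842% were lower by this measure, since it sets each gene against a family that itself fell. The call of *Myh7* was lost without CUG200 library 2 (adjusted p = 0.0557). *Myh7b* was higher relative to the family (0.54, SE 0.25, adjusted p = 0.0447), as were 85.8% of tested genes, so its call is the common one, and it was lost without CUG5 library 1, CUG5 library 3, or CUG200 library 2 (adjusted p = 0.113, 0.181, and 0.144). The other 5 members did not pass: *Myh6* stood at -0.62 (adjusted p = 0.0878), *Myh1* at -0.42 (0.0801), *Myh2* at -0.39 (0.184), *Myh4* at -0.06 (0.809), and *Myh3* at 0.06 (0.826). *Myh1* passed only without CUG200 library 3 (adjusted p = 0.0371). The dispersion drew on all tested genes on this scale, so the SE is not the spread of a member within the family alone. A member that did not pass is thus not shown to have moved with the family. By counts per kilobase, *Myh1* per unit of *Myh3* was 0.110, 0.109, and 0.111 in CUG5 and 0.0734, 0.0780, and 0.0860 in CUG200. *Myh3* makes up most of the total and is thus compared largely with itself. Against the other 7 members its value was 0.38 (adjusted p = 0.210).

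Along chromosome 11 the 5 clustered genes changed by -1.32 (*Myh3*), -1.76 (*Myh2*), -1.78 (*Myh1*), -1.42 (*Myh4*), and -2.90 (*Myh8*) on the log2 scale. *Myh8* thus had the lowest value at one end of the row of members, and its neighbor *Myh4* had a value close to that of *Myh3*. Any part of position or of the shared sequence runs in these values was not tested. The next gene of the cluster, *Myh13* (chr11:67321658-67371586), encodes the chain of extraocular and laryngeal muscle. It had 186, 111, and 213 counts in CUG5 and 248, 241, and 326 in CUG200, with a log2 fold change of 0.72 that did not pass (SE 0.25, adjusted p = 0.0862). By TPM its groups overlapped, at 3.60, 0.487, and 4.91 in CUG5 and 1.76, 2.61, and 3.80 in CUG200. *2310065F04Rik*, annotated between *Myh3* and *Myh2*, had 55, 71, and 90 counts in CUG5 and 17, 48, and 51 in CUG200, and its value of -0.89 did not pass (adjusted p = 0.247). *Myh15*, on chromosome 16, had 5 counts in CUG5 library 1 and 0 in the others.

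**Figure D4:**
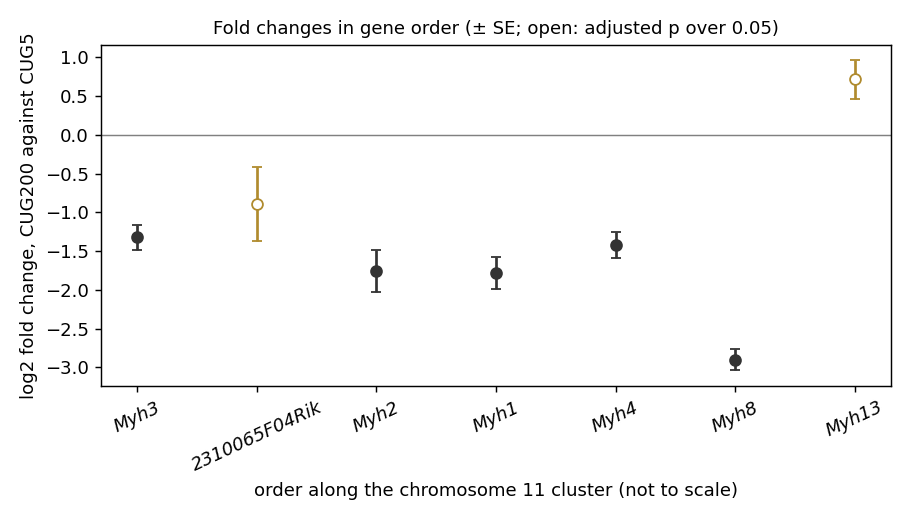
Log2 fold change of CUG200 against CUG5 with its SE for the genes of the chromosome 11 cluster in their order along the chromosome, members in black and other genes in yellow, with open symbols where the adjusted p-value was over 0.05. The 5 members lie between -2.90 and -1.32, and Myh13 at 0.72.

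On the other chromosomes, *Myh6* and *Myh7* each share exonic bases with antisense genes, among them *Mhrt* (484 bases with *Myh7*), *Gm31251* (523 bases with *Myh7*), *Gm29015* (142 bases with *Myh7*), and *Gm49130* (114 bases with *Myh6*). All 4 had at most 4 counts in any library. *Trpc4ap* shares 37 exonic bases with *Myh7b* on the opposite strand and had between 6428 and 9991 counts. Its log2 fold change was -0.26 (adjusted p = 0.101).

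The genes that fold, bind, or regulate heavy chains were read in partner lists written by hand. These lists also held 4 nonsarcomeric heavy chains and 2 sarcomeric-type heavy chains outside the family, *Myh13* and *Myh15*. Of the 48 genes in all these lists, 44 were tested. As lower, 4 passed both cutoffs (0.816% of all tested genes) and 24 an adjusted p-value under 0.05 alone (8.73%). Of these 24, 1 was a nonsarcomeric heavy chain. As higher, 0 passed both cutoffs and 1 the adjusted p-value alone. The count of 0 was also found by DESeq2 and at an unadjusted p-value under 0.05 with the same fold. Over all tested genes, 1.36% were higher past both cutoffs and 7.13% at the adjusted p-value. The median log2 fold change of the 44, with these other heavy chains included, was -0.53, against -1.77 for the members of the family.

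Among 7 genes of heavy chain folding and turnover, 4 fell at the adjusted p-value and 1 past both cutoffs. That gene was *Unc45b*, the muscle chaperone that folds the myosin head, at 24.6, 20.2, and 21.5 CPM in CUG5 and 9.44, 9.46, and 9.07 CPM in CUG200 (log2 fold change -1.25, adjusted p = 0.00114, edgeR). *Smyd1*, a methyltransferase that works with the myosin chaperones, changed by -0.90 (adjusted p = 0.00104), and the general chaperone *Hsp90aa1* stood at 0.19 (adjusted p = 0.332). Of 9 thick filament partners, 8 were tested, 7 fell at the adjusted p-value and 2 past both cutoffs. These were the fast and slow myosin binding proteins C, *Mybpc2* (-1.42, adjusted p = 0.00441) and *Mybpc1* (-1.20, adjusted p = 0.00550). *Mybpc2* was at 5.85, 4.75, and 7.04 CPM in CUG5 and 1.76, 2.41, and 2.41 CPM in CUG200. The giant protein titin (*Ttn*), the scaffold on which the thick filament is laid out, changed by -0.91 (adjusted p = 0.00517), and the cardiac *Mybpc3* had at most 3 counts in every library.

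The light chains, which bind the neck of each heavy chain, had fold changes nearer to 0. Of 7 in the list 5 were tested, 3 fell at the adjusted p-value and 0 past both cutoffs, also 0 by DESeq2 or at an unadjusted p-value under 0.05 with the same fold. *Myl6b* changed by -0.68 (adjusted p = 0.00270), the embryonic and atrial *Myl4* by -0.45 (adjusted p = 0.0169), and the slow regulatory *Myl2* by -0.74 (adjusted p = 0.0316), and the calls of *Myl4* and *Myl2* were lost without CUG5 library 1, 2, or 3 and without CUG200 library 2, that of *Myl2* also without CUG200 library 3. The fast light chains did not pass, with *Mylpf* at -0.16 (adjusted p = 0.403) and *Myl1* at -0.29 (adjusted p = 0.210). *Myl7* and *Myl3* had at most 3 counts in every library.

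Of 19 transcriptional regulators of myosin genes, 9 fell at the adjusted p-value, 1 of them past both cutoffs, and 1 rose. *Mef2c*, a factor that binds MEF2 elements of muscle genes, was at 58.4, 67.5, and 119 CPM in CUG5 and 39.9, 39.1, and 42.6 CPM in CUG200 (-1.01, adjusted p = 0.0471). CUG5 library 3 was far above the other CUG5 libraries. Without it the log2 fold change of *Mef2c* was -0.62 (adjusted p = 0.0238), and its call at the adjusted p-value was lost without CUG5 library 2 or any 1 of the CUG200 libraries. *Tbx15*, known from fast glycolytic fibers, changed by -0.85 (adjusted p = 0.00198), *Vgll2* by -0.88 (adjusted p = 0.00253), *Eya1* by -0.78 (adjusted p = 0.0114), and *Myod1* by -0.52 (adjusted p = 0.0129). *Nfatc1*, a calcium-dependent factor of slow fibers, rose by 0.48 (adjusted p = 0.0327), a call lost without CUG5 library 1, 2, or 3 and without CUG200 library 2 or 3 (adjusted p up to 0.110). *Sox6*, a repressor of slow genes, was under 1 TPM in every library and did not pass (adjusted p = 0.173).

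Of the 4 nonsarcomeric heavy chains, which serve the cytoskeleton and smooth muscle, 1 fell at the adjusted p-value, *Myh10* (-0.42, adjusted p = 0.0166), and its call was lost without CUG5 library 1 or 3 or CUG200 library 2. The most abundant of them, *Myh9*, was at 198, 176, and 186 TPM in CUG5 and 133, 153, and 214 TPM in CUG200 and did not pass (-0.08, adjusted p = 0.717).

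**Figure D5:**
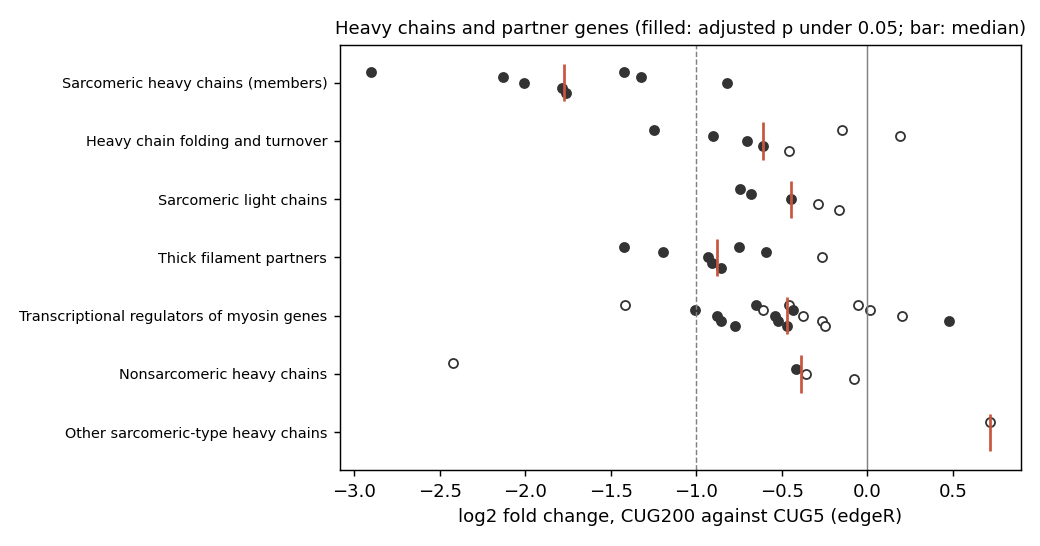
Log2 fold change of CUG200 against CUG5 (edgeR) for the heavy chain members and for each tested gene of the partner lists, filled where the adjusted p-value was under 0.05, with a red bar at the median of each list and a dashed line at the fold cutoff. The members have a median of -1.77 and the thick filament partners one of -0.88.

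Markers of other cells were read beside these differences, and their part in them was not tested. Over all tested genes, 8.73% were lower and 7.13% higher at the adjusted p-value, and 0.816% and 1.36% past both cutoffs. Of 10 markers of undifferentiated or reserve cells, 2 fell and 2 rose at the adjusted p-value, and their summed level overlapped between the groups (222 to 251 TPM in CUG5 and 205 to 248 TPM in CUG200). The Notch targets *Heyl* (-1.61, adjusted p = 0.00109) and *Hey1* (-2.33, adjusted p = 0.00198) were lower, and *Cd34* (0.97, adjusted p = 0.00305) and *Id2* (0.41, adjusted p = 0.0304) were higher. The call of *Id2* was lost without CUG5 library 1, 2, or 3 and without CUG200 library 1 or 2. Of 6 smooth muscle or myofibroblast markers, 3 rose, 2 of them past both cutoffs, *Tagln* (1.31, adjusted p = 4.81e-04) and *Cnn1* (1.54, adjusted p = 0.0197), the latter lost without CUG5 library 3 or CUG200 library 2. The third was *Actg2* (0.43, adjusted p = 0.0413), chosen here after its value was seen. *Acta2* (0.20, adjusted p = 0.134) and *Smtn* (0.31, adjusted p = 0.0996) did not pass. The nonsarcomeric heavy chain *Myh11* had the opposite sign, at -2.42, and did not pass (adjusted p = 0.246). It had 6, 16, and 28 counts in CUG5 and 0, 0, and 9 in CUG200. The summed level of the 6 markers overlapped, at 2473 to 2978 TPM in CUG5 and 2796 to 3336 TPM in CUG200. Of 5 cycling markers 0 passed by edgeR or DESeq2 and 0 had an unadjusted p-value under 0.05, with summed levels of 259 to 302 TPM and 270 to 294 TPM. Of 4 endothelial markers 1 was tested, *Tek* (-0.95, adjusted p = 0.0107, lost without CUG200 library 2). Of 5 adipocyte markers 4 and of 4 leukocyte markers 3 had at most 3 counts in every library.

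The genes whose profile over the 6 libraries lay nearest to that of the family total were sought among 9653 genes with a mean of at least 10 CPM, with the 8 members themselves left out as candidates. The measure was the root mean square difference of log2 CPM after each profile was centered on its mean. Among these genes outside the family, the nearest were *Actn2*, the alpha-actinin of the Z-disc (0.145), *Aldh3a1*, an aldehyde dehydrogenase (0.148), and *Maf*, a transcription factor (0.166). Of the same candidates *Actn2* was also nearest to *Myh3* (0.124), and *Pygm*, muscle glycogen phosphorylase, to *Myh4* (0.142). *Igfn1*, a Z-disc protein of muscle, was nearest to *Myh1* (0.196), *Myh2* (0.195), and *Myh7* (0.251), and *Aldh3a1* to *Myh6* (0.124). *Myh8* had no profile as close: its nearest were *Hey1* (0.396), *Psd3* (0.533), and *Fmo1* (0.545). The distance includes the size of the group difference. By log2 fold change *Myh8* was rank 11 among the genes lower at the adjusted p-value, so few candidates had a difference as large. *Myh7b*, which did not pass the fold cutoff, was not searched. These distances describe 6 libraries in 2 groups and carry no test.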

How the data were processed

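RNA-seq libraries of C2C12 cells with GFP-CUG5 or GFP-CUG200 (3 each, differentiation day 4) were analysed. The authors trimmed reads with Trim Galore, aligned them to GRCm38 with HISAT2, and quantified them with StringTie, and tool versions are not given in the sources used here. The deposited counts per gene were not normalized. The deposited tables of each library give StringTie coverage (signal), FPKM, and TPM per gene, of which FPKM was not used. A count equalled 75 aligned bases within 1 count for at least 99.1% of single-transcript genes per library. Totals of 61707889 to 80957325 counts set the precision of a value.

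Genes were filtered with filterByExpr (minimum count 10), which left 19005, scaled by TMM (factors 0.940 to 1.05), and tested with edgeR 4.0.16 (robust quasi-likelihood, no covariate, R 4.3.3) with Benjamini-Hochberg adjustment over all tested genes. Cutoffs were an adjusted p-value of 0.05 and a log2 fold change of 1, those of the study, which used DESeq2. Classes were tested as summed counts, and members against the family with its summed counts as library size. Shares of summed TPM were compared by an exact permutation test (scipy 1.17.1). Alternatives were DESeq2 1.42.0, limma 3.58.1 on log2(TPM + 1) and log2(TPM + 0.1), glmTreat, other filters and scalings, counts divided by 4, the replicate number as a block, and leaving out each library. The tests were tested on simulated data first. Shares of counts per kilobase and the sum over the 5 clustered genes were chosen after seeing the data. The members and lists were chosen with earlier results of these data known. The genes named are the 8 members, up to 3 genes of each list in each direction with the smallest p-value past both cutoffs (or past the adjusted p-value where none was), *Myh13*, *Myh15*, overlapping genes, and the 3 nearest profiles. Other genes of the lists that the text names were chosen after their values were seen.

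Annotation came from GENCODE M21 and start-site windows from RefSeq (GRCm38.p6). Figures were drawn with matplotlib 3.10.9.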

Additional observations from a re-analysis of the deposited data

How the results depend on the processing

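The direction of the fold change of all 8 members was kept under all 17 alternatives of their test. The count of members past both cutoffs was 6 with either limma fit, 1 with glmTreat, where *Myh8* alone passed, and 7 to 8 with 1 library left out. *Myh7b* also lost its adjusted p-value with limma on log2(TPM + 1) (0.0659) and log2(TPM + 0.1) (0.0617), and *Myh6* with the latter (0.0588). On log2(TPM + 1) the log2 fold change was -1.08 for *Myh2* and -1.31 for *Myh7*, and on log2(TPM + 0.1) it was -1.79 and -1.70. These fits differ from the main test in both the measure and the pseudocount, and the part of each was not tested. The class sums passed under every alternative tried. Against the family total, the count of members called lower was 2 and lay between 1 (without CUG200 library 2) and 3 with 1 library left out, and *Myh4* turned from -0.06 to 0.00656 without CUG5 library 2 (-0.116 to 0.00656 with 1 library left out). The difference of the *Myh6* share, which is the cardiac alpha share, was 0.000172 percentage points by TPM, -0.0712 by counts, -0.0668 by coverage, and -0.0704 by counts per kilobase, and between -0.0640 and 0.0358 by TPM with 1 library left out. The cause was not tested. Partner genes lower past both cutoffs numbered 4, and 3 to 5 under the alternatives. Among all tested genes 155 were lower and 259 higher past both cutoffs, with 91 and 182 without CUG5 library 3, 79 and 58 with limma on log2(TPM + 1), 177 and 152 on log2(TPM + 0.1), and 1 and 3 with glmTreat. At the adjusted p-value alone 1660 were lower and 1356 higher, against 673 and 352 with limma on log2(TPM + 1), 696 and 354 on log2(TPM + 0.1), 668 and 628 without CUG5 library 1, 774 and 665 without CUG5 library 2, 485 and 543 without CUG5 library 3, 568 and 589 without CUG200 library 2, and 1 and 3 with glmTreat.

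Libraries with the same replicate number did not deviate together enough to be read as pairs (correlations of 0.113, 0.0518, and 0.0538). With the replicate number as a block, 7 members passed both cutoffs, as without it, the family total changed by -1.39, 3 partner genes were lower past both cutoffs (*Mef2c* no longer passed the fold cutoff), *Nfatc1* and *Myl2* lost their calls at the adjusted p-value, and 139 genes were lower and 234 higher among all tested genes. About 4 counts make 1 fragment, and *Myh6* and then *Myh2* had the fewest counts of the members by group mean. With counts divided by 4, the log2 fold change was -1.98 for *Myh6* and -1.76 for *Myh2*.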
